A study of Mus musculus with 12 samples.

Results

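The effect of green tea extract added to a high-fat diet was described in mouse epididymal fat (eWAT, a white adipose depot beside the testis) by comparing the FPKM (fragments mapped to a transcript, scaled by its length and by the library's mapped fragments) of 3 libraries from extract-fed mice (GT) with those of 3 libraries from mice fed the high-fat diet alone (HFD). Every gene that averaged 1 FPKM or more across these 6 libraries was included, which left 12766 of the 23474 genes in the table and 6 of its 12 libraries. The genes nearest to that limit had means of 1.0006 and 0.9997 FPKM. All mice were C57BL/6J males that went onto their diets at 5 weeks of age, stayed on them for 12 weeks and were 17 weeks old at sampling. The GT mice ate the HFD with 0.25% (w/w) of an ethanol extract of green tea mixed in, so both groups shared the high-fat diet and differed by the extract. The remaining libraries came from mice on a normal diet (ND, 3 libraries) and from mice fed the HFD with the herbal medicine Taeeumjowuitang at 3% (w/w) (TJ, 3 libraries). Each group held 10 mice. The 3 HFD mice used for sequencing were picked at random per the methods, and how the GT mice were picked is not given in the sources used here. Each library is treated as 1 mouse. An FPKM table carries no read counts, so no counting interval is given, and approximate depths were 14.4M to 18.5M fragments in the HFD libraries and 15.8M to 19.8M in the GT libraries.

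White adipocytes store triglyceride in a droplet coated by perilipins, build it from fatty acids and glycerol 3-phosphate, and release it through lipases that adrenergic signals switch on and that receptors for lactate, ketone bodies and short-chain fatty acids switch off. In obesity the epididymal depot also takes up macrophages, lays down extracellular matrix and holds mast cells and fibroblast-like progenitors. Green tea extracts are rich in catechins, of which epigallocatechin gallate is the best known.

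The adipose label held in all 6 libraries, with Adipoq (adiponectin) at 908 to 1037 FPKM in HFD and 1258 to 2129 FPKM in GT, and Fabp4, the fatty acid binding protein of adipocytes, at 12040 to 14490 and 17370 to 17590 FPKM. Some HFD libraries held transcripts of neighbouring organs. The summed FPKM of the testis germ cell markers was 2613, 79.3 and 57.2 in HFD replicates 1, 2 and 3, against 39.9 to 122 in GT, and that of the epididymis markers was 47.6, 2090 and 6.90 in HFD against 12.8 to 18.7 in GT. Of the germ cell markers tested, 19 of 19 had a lower GT mean, and 0 were called. For the genes called lower in GT, no HFD library held more than 60% of the HFD sum. ND replicate 1 held far more testis transcripts (a germ cell sum of 112400 FPKM), and its values are given only side by side. In bulk tissue, fewer cells of a type and less RNA per cell cannot be told apart, which applies to every difference below.

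Differentially expressed genes (DEGs) were those with a Benjamini-Hochberg adjusted p under 0.05 in limma on log2(FPKM + 1) and a fold change of at least 1.5. There were 464 DEGs (3.63% of the genes tested). Of these, 233 (1.83%) were higher in GT and 231 (1.81%) lower, and in all 464 the 3 GT values lay outside the range of the 3 HFD values. These shares are the background for the counts of called list members below, and a lack of overlap adds nothing to a call. A 2-fold change or more was found in 54 of the higher and 83 of the lower DEGs. At an unadjusted p under 0.05 there were 1274 higher (9.98%) and 2470 lower (19.3%) genes, and 34.6% of all genes tested had a higher GT mean on the log2 scale. The limit of 1 FPKM applied to the mean over both groups, so 2 higher DEGs with an HFD mean below 1 FPKM and 15 lower DEGs with a GT mean below it passed through the group where they are high. The exact permutation test of 1 gene over 3 against 3 libraries cannot go below p = 0.1, so the calls rest on the limma model.

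These calls sat close to the threshold, and their number depended on single libraries. The count of DEGs was 39 higher and 27 lower without HFD replicate 1, 2 and 3 without HFD replicate 2, 2 and 5 without HFD replicate 3, 1 and 3 without GT replicate 2, and 2 and 3 without GT replicate 3, while it was 375 and 732 without GT replicate 1. With HFD replicates 1 and 2 both left out, no gene was called in limma, and 1093 higher and 1202 lower genes had an unadjusted p under 0.05. The GT libraries also differed in extent. GT replicate 3 held the highest of the GT values in 169 of the 233 higher DEGs and the lowest in 177 of the 231 lower DEGs, and GT replicate 1 was the GT library nearest to HFD in 177 and 179 of them. Scaling mattered to the split as well. The median log2 fold change over all genes tested was -0.12, and it was -0.02 after median-of-ratios scaling and 0.03 after quantile normalization, with 367 higher and 154 lower DEGs and 405 higher and 162 lower DEGs. The balance at an unadjusted p under 0.05 turned with it, to 1953 higher and 1634 lower genes and to 2110 higher and 1366 lower genes, so the counts of list members at that p given below depend on the scaling too.

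**Figure D1:**
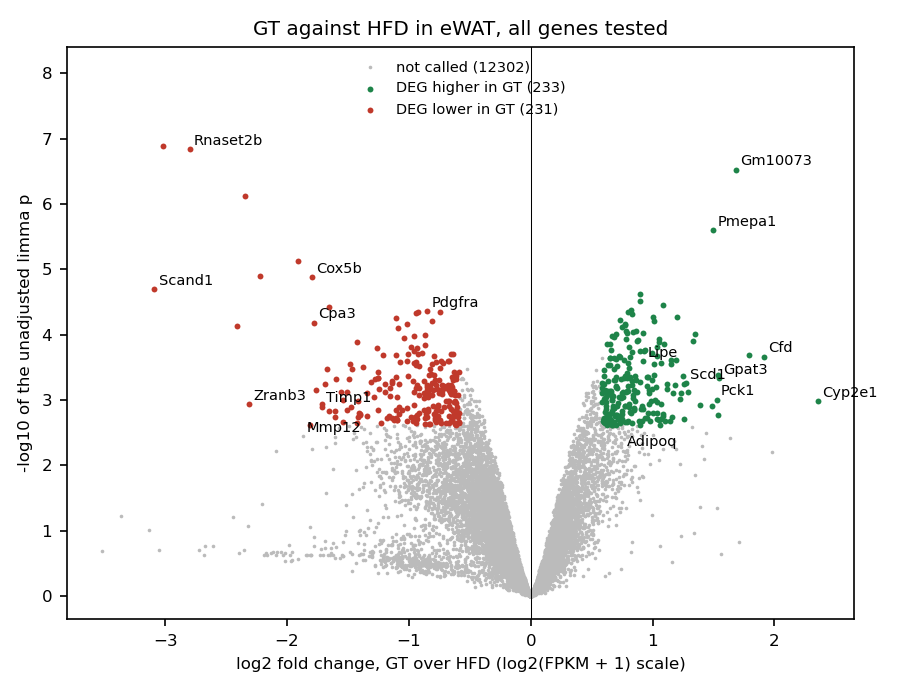
Each point is 1 of the 12766 genes tested, with the log2 fold change of GT over HFD on the log2(FPKM + 1) scale on the x axis and −log10 of the unadjusted limma p on the y axis, and green and red points are DEGs. Cyp2e1 and Cfd lie farthest to the right and Scand1 farthest to the left among the DEGs, and Adipoq lies among the genes that were not called.

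Cyp2e1, a cytochrome P450 that oxidizes ethanol, acetone and fatty acids, had the largest rise of all DEGs with a symbol. It stood at 106, 111 and 65.3 FPKM in HFD and at 240, 557 and 795 FPKM in GT, with a log2 fold change of 2.36 ± 0.44 (SE, n = 3 and 3; limma adjusted p = 0.042). Cfd, the adipocyte serine protease adipsin, was at 338, 349 and 251 FPKM in HFD and 800, 1204 and 1668 FPKM in GT, a log2 fold change of 1.92 ± 0.27 (limma adjusted p = 0.034). In both genes the lowest GT library was above the highest HFD library, and the GT libraries differed among themselves by more than 2-fold, with replicate 1 lowest. Cyp2e1 lies at chr7:140763739-140774987 on the plus strand of GRCm38. Its RefSeq promoter (GRCm38.p6, chr7:140763569-140763868, from 250 bases before the start to 50 after) is shown because it belongs to the DEG with the largest rise, with matches to TATAAA and CCAAT on either strand in capitals.

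Cyp2e1: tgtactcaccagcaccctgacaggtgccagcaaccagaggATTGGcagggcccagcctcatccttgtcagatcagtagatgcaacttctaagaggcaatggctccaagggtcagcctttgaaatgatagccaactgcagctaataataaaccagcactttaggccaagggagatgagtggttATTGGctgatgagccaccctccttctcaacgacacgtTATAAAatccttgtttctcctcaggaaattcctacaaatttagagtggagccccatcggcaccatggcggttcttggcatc

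The TATAAA match spans bases -31 to -26 from the start, and TATAAA occurs in 13.6% and CCAAT in 37.4% of the 32851 promoters of the same table. Pck1, the cytosolic phosphoenolpyruvate carboxykinase that supplies glycerol 3-phosphate in adipocytes, was at 266, 246 and 227 FPKM in HFD and 444, 819 and 980 FPKM in GT (log2 fold change 1.52 ± 0.28, limma adjusted p = 0.041). Gpat3, which attaches the first fatty acid to glycerol 3-phosphate, went from 14.3, 14.9 and 12.4 FPKM to 29.5, 41.4 and 61.9 FPKM (1.55 ± 0.25, limma adjusted p = 0.038). Pck1 and Gpat3 were higher in every GT library than in any HFD library, as was every higher DEG.

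Coat proteins of the lipid droplet rose with them. Plin5, the perilipin of oxidative tissues, was at 6.63, 6.00 and 6.10 FPKM in HFD and 13.2, 17.6 and 21.8 FPKM in GT (log2 fold change 1.33 ± 0.17, limma adjusted p = 0.032). Plin4 rose by 1.04 ± 0.21 and Plin1, the main coat of the adipocyte droplet, by 0.97 ± 0.17. Over the list of triglyceride synthesis and lipid droplet genes, 5 of the 25 tested were called, all of them higher (Gpat3, Pck1, Plin1, Plin4 and Plin5), 19 had a higher GT mean, and the median log2 fold change was 0.47 against -0.12 over all genes tested. Gk (glycerol kinase) had the lowest log2 fold change of the list, -0.96, and was not called (limma adjusted p = 0.056). The list median was 0.30 without GT replicate 3 and 0.51 with HFD replicates 1 and 2 left out.

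Of the genes of fatty acid synthesis, 3 of the 20 tested were called, all higher (1.83% of all genes tested were higher DEGs). Scd1, which makes monounsaturated fatty acids, was at 3389, 4571 and 3545 FPKM in HFD and 7249, 8867 and 12110 FPKM in GT (log2 fold change 1.27 ± 0.21, limma adjusted p = 0.038). Acacb and Pnpla3 rose by 0.78 ± 0.14 and 0.73 ± 0.15. The 2 groups did not overlap in any of the 3, as in every DEG. Fasn (fatty acid synthase) was at 318 to 393 FPKM in HFD and 412 to 496 FPKM in GT and was not called (limma adjusted p = 0.11), and Elovl6 had a log2 fold change of -0.57. In fatty acid uptake Acsl1 and Slc27a1 rose by 0.62 ± 0.11 and 0.74 ± 0.15, and 2 of 15 were called.

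The list of adrenergic signalling and lipolysis held the most higher DEGs of the lists used. Of its 21 genes tested, 8 were higher DEGs, none in limma was a lower DEG (1 had an unadjusted p under 0.05), 19 had a higher GT mean, and the median log2 fold change was 0.59. Plin1 is 1 of the 8 and also counts in the triglyceride and adipocyte lists, so the counts of these lists are not separate. Lipe, the hormone-sensitive lipase, was at 418, 354 and 366 FPKM in HFD and 622, 715 and 832 FPKM in GT (log2 fold change 0.92 ± 0.14, limma adjusted p = 0.034). Members that act against lipolysis stood beside it. Ffar2, a receptor for short-chain fatty acids, was at 22.5, 13.8 and 11.3 FPKM in HFD and 39.8, 37.4 and 39.0 FPKM in GT (1.29 ± 0.23, limma adjusted p = 0.038). Hcar2, the ketone body and nicotinic acid receptor, was at 10.2, 7.86 and 6.92 FPKM in HFD and 17.2, 18.6 and 18.2 FPKM in GT (1.04 ± 0.14, limma adjusted p = 0.034). The GT values of both receptors lay close together, unlike those of Lipe. The adenosine receptor Adora1 rose by 0.74 ± 0.13 and the lipase inhibitor G0s2 by 0.59 ± 0.10, while the glycerol channel Aqp7 rose by 0.78 ± 0.09 and the cyclase Adcy5 by 0.96 ± 0.19. Adrb3, the adrenergic receptor of adipocytes, had the highest log2 fold change of the list, 1.41 ± 0.35, at 92.0, 56.9 and 41.4 FPKM in HFD and 135, 126 and 245 FPKM in GT, and missed the threshold (limma adjusted p = 0.065). Pnpla2, the first lipase of triglyceride breakdown, did not separate, with 614 to 708 FPKM in HFD and 660 to 1374 FPKM in GT.

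Among adipocyte identity and adipokine genes, 6 of 26 were called and all 6 were higher (Cfd, Retn, Plin4, Plin1, Rbp4 and Tshr), with a median log2 fold change of 0.51. The lowest member was Lcn2 at -0.97, not called. Retn (resistin) was at 268, 270 and 171 FPKM in HFD and 411, 486 and 598 FPKM in GT (1.09 ± 0.22, limma adjusted p = 0.048), and Rbp4, the retinol carrier, rose by 0.87 ± 0.11. Adipoq had 1027, 1037 and 908 FPKM in HFD and 1258, 1741 and 2129 FPKM in GT, with no overlap, and was not called (0.76 ± 0.19, limma adjusted p = 0.067). Lep (leptin) overlapped between the groups, at 899, 1196 and 1186 FPKM in HFD and 1143, 1117 and 1366 FPKM in GT, a difference of 0.15 ± 0.15 (limma adjusted p = 0.52). Pparg had a log2 fold change of 0.34 ± 0.18. The summed FPKM of the adipocyte list was 26600 to 28400 in HFD and 36370 to 40910 in GT, and that of the macrophage identity list 4536 to 6205 in HFD and 1913 to 4166 in GT, so both sums differed between the groups without overlap. Their part in the other results was not tested.

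**Figure D2:**
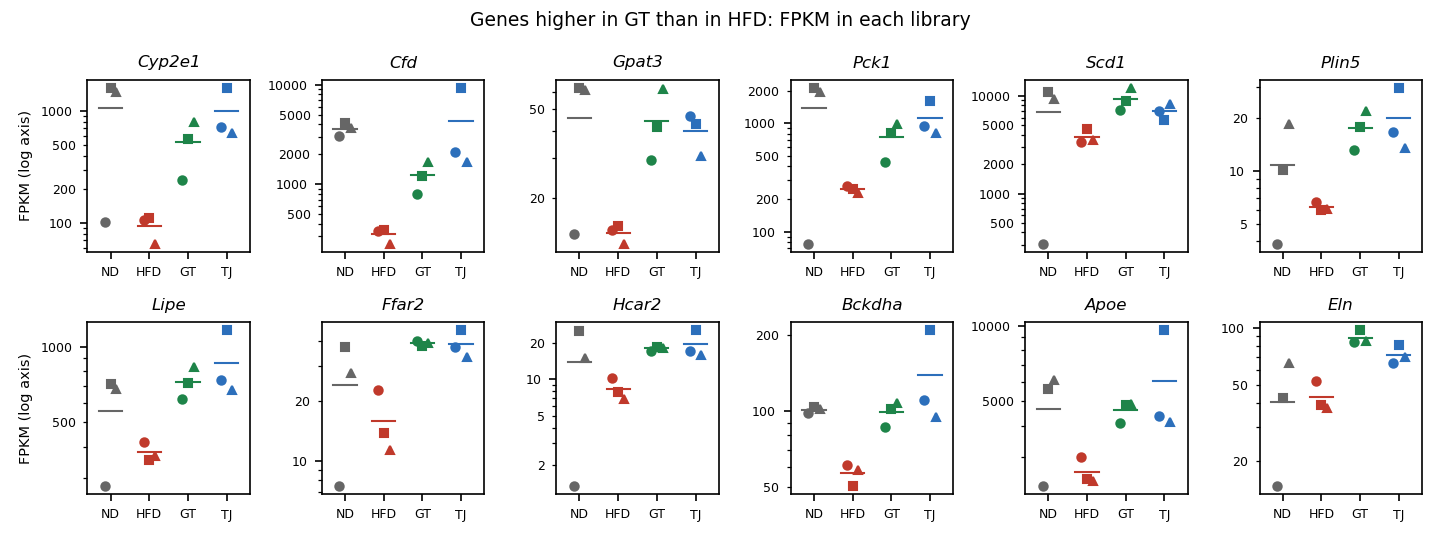
FPKM (log axis) of 12 genes called higher in GT, in each of the 12 libraries (circle, square and triangle for replicates 1, 2 and 3; line for the group mean of 3). In each panel the 3 GT points lie above the 3 HFD points, and ND replicate 1 lies far from the other ND libraries in most panels.

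Genes of fuel oxidation were called mainly in the breakdown of branched-chain amino acids. In branched-chain amino acid catabolism, 22 of 24 genes had a higher GT mean, 5 were higher DEGs, 17 did not overlap upward (12.3% of all genes tested) and the median log2 fold change was 0.46. Bckdha, a subunit of the rate-setting dehydrogenase, was at 60.8, 50.3 and 58.5 FPKM in HFD and 86.3, 102 and 108 FPKM in GT (0.79 ± 0.12, limma adjusted p = 0.038). Ivd, Bcat2, Pcca and Pccb rose by 0.82 ± 0.16, 0.61 ± 0.11, 0.67 ± 0.12 and 0.67 ± 0.14. These enzymes cover the transamination, the leucine branch and the propionate branch. Of the β-oxidation genes, Acad11 and Acads were called among 24, 18 had a higher GT mean and the median was 0.28. Cpt1b stood against them at -0.91, not called (limma adjusted p = 0.062). Of the tricarboxylic acid cycle genes, 14 of 18 had a higher GT mean, and none was called in limma (6 had an unadjusted p under 0.05, all higher). In the glycolysis list 0 of 23 were called, with 4 higher and 3 lower at an unadjusted p under 0.05. Slc2a4, the insulin-responsive glucose transporter, was at 20.0 to 28.8 FPKM in HFD and 35.3 to 69.2 FPKM in GT, with a log2 fold change of 0.96 ± 0.25 (limma adjusted p = 0.070).

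Respiratory chain genes were called in 4 cases, all lower (1.81% of all genes tested), 1 of 36 complex I subunits and 3 of 46 subunits of complexes II to V. Of 36 complex I subunits 28 had a higher GT mean, and the median log2 fold change was 0.16. At an unadjusted p under 0.05, 12 of them were higher and 3 lower. Ndufa5 was at 27.7 to 42.9 FPKM in HFD and 34.2 to 40.4 FPKM in GT. For complexes II to V 27 of 46 had a higher GT mean, with 7 higher and 4 lower at an unadjusted p under 0.05. The 4 DEGs of both lists were, by the size of the fall, Cox5b, Ndufb2, Cox5a and Atp5d. Cox5b, a subunit of cytochrome c oxidase, was at 176, 168 and 156 FPKM in HFD and 59.7, 38.1 and 46.0 FPKM in GT (-1.80 ± 0.16, limma adjusted p = 0.021). All 4 belong to the library pattern given further on. In the thermogenesis list of 12, Ucp3 and Fgf21 were called higher. Ucp3, a mitochondrial carrier of muscle and adipose tissue, was at 14.9, 16.5 and 12.6 FPKM in HFD and 23.9, 32.1 and 41.1 FPKM in GT (1.07 ± 0.20, limma adjusted p = 0.043). Fgf21, a hormone of fasting and cold, was near the lower limit at 0.67 to 1.05 FPKM in HFD and 2.19 to 2.96 FPKM in GT (0.95 ± 0.20). It passed the limit only through the GT libraries, so its call adds nothing to the list's count. Ucp1 was below the 1 FPKM limit and was not tested. The median of this list was 0.15, it ranged from 0.04 without HFD replicate 2 to 0.27 without HFD replicate 3, and it turned to -0.14 with HFD replicates 1 and 2 left out. Of the AMPK list, 9 of 18 had a higher GT mean and 9 a lower one, and at an unadjusted p under 0.05 there were 3 higher and 5 lower. Prkag3, a regulatory subunit, was the 1 called (3.63% of all genes tested), at 2.83 to 3.72 FPKM in HFD and 5.64 to 8.15 FPKM in GT (0.85 ± 0.16), and Sesn3 had the lowest log2 fold change, -0.50, and was not called.

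Insulin signalling genes were called in both directions. Akt2, the kinase of insulin-stimulated glucose uptake, rose by 0.63 ± 0.11 and Irs3 by 0.77 ± 0.12, and Grb14, an inhibitor of the insulin receptor, fell by 0.81 ± 0.12 on the log2 scale. Grb14 was at 21.8, 21.3 and 26.4 FPKM in HFD and 12.2, 14.2 and 11.8 FPKM in GT. Of 21 genes in this list 15 had a higher GT mean.

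Sterol genes were called in both directions, 2 lower and 1 higher. Of 22 cholesterol synthesis and uptake genes 19 had a lower GT mean, with a median log2 fold change of -0.39. Sqle (squalene epoxidase) was at 10.9, 9.05 and 11.6 FPKM in HFD and 6.16, 5.49 and 4.76 FPKM in GT (-0.83 ± 0.13, limma adjusted p = 0.038), and Msmo1 fell by 0.72 ± 0.11 on the log2 scale. Hmgcs1, the synthase at the head of the pathway, was called in the other direction, at 122, 113 and 112 FPKM in HFD and 167, 184 and 210 FPKM in GT (0.68 ± 0.11). Apoe, which carries cholesterol and is made by adipocytes and macrophages, rose by 0.82 ± 0.13, from 3009, 2452 and 2415 FPKM to 4112, 4829 and 4905 FPKM.

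Of 18 clock genes 2 were called lower and 1 higher (1.81% and 1.83% of all genes tested), and the calls fell on both arms. Arntl (Bmal1) was at 8.72, 8.09 and 9.92 FPKM in HFD and 4.35, 4.86 and 4.03 FPKM in GT (-0.87 ± 0.12, limma adjusted p = 0.032). Its partner Npas2 fell by 0.88 ± 0.15 on the log2 scale, and Per3, of the repressing arm, rose by 0.60 ± 0.12. Nr1d1 (Rev-erbα), which represses Arntl, was at 15.6 to 27.1 FPKM in HFD and 37.9 to 55.4 FPKM in GT and was not called (1.00 ± 0.23, limma adjusted p = 0.057). The hour of sampling is not given in the sources used here.

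Of the NRF2 target list, 3 of 27 were called and all 3 were lower (Akr1b8, Cbr3 and Txnrd1), where 1.81% of all genes tested were lower DEGs. The list median of -0.10 was near the -0.12 of all genes tested. A higher GT mean was found in 7 of the 27, against 34.6% of all genes tested. Akr1b8, an aldo-keto reductase, was at 49.2, 32.5 and 50.8 FPKM in HFD and 23.5, 20.6 and 15.4 FPKM in GT (-1.11 ± 0.22, limma adjusted p = 0.046). Nqo1, a standard NRF2 target, was at 2.28 to 5.22 FPKM in HFD and 2.90 to 3.03 FPKM in GT, and its log2 fold change of -0.08 changed sign with the scaling. Catalase (Cat) lay above HFD in every GT library, at 366 to 425 FPKM against 246 to 301 FPKM (limma adjusted p = 0.051). Of the glutathione list Mgst1 and Gstm4 rose by 0.69 ± 0.11 and 0.62 ± 0.13 out of 26, 19 had a higher GT mean, and Gstm7 was lowest at -1.19, not called.

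The lower DEGs held genes of the extracellular matrix and its enzymes. In the list of matrix metalloproteases and inhibitors 4 of 17 were called, all lower (1.81% of all genes tested were lower DEGs). The median log2 fold change was -0.67. Timp1, an inhibitor of these proteases and a fibrosis marker, was at 42.6, 22.0 and 39.3 FPKM in HFD and 13.2, 10.4 and 6.00 FPKM in GT (-1.72 ± 0.33, limma adjusted p = 0.044). Mmp3 (stromelysin) was at 9.12, 6.88 and 11.1 FPKM in HFD and 3.73, 2.33 and 1.74 FPKM in GT (-1.49 ± 0.24, limma adjusted p = 0.038). Mmp2 (gelatinase A) was at 67.0, 64.4 and 75.3 FPKM in HFD and 39.8, 37.6 and 29.2 FPKM in GT (-0.94 ± 0.14, limma adjusted p = 0.034). GT replicate 3 was lowest in each of these 3 genes, and Timp2 fell by 0.67 ± 0.14 on the log2 scale. Mmp12, the macrophage elastase, had the lowest log2 fold change of the list, -1.87 ± 0.43, at 970, 828 and 1379 FPKM in HFD and 441, 367 and 139 FPKM in GT, and was not called (limma adjusted p = 0.058). The inhibitor Timp4 stood against the list with no overlap, at 40.8, 48.6 and 33.5 FPKM in HFD and 65.1, 86.9 and 141 FPKM in GT, and was not called (1.17 ± 0.28, limma adjusted p = 0.061).

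Crosslinking and matricellular genes were called 7 times lower and 2 times higher among 24 (1.81% and 1.83% of all genes tested). Postn (periostin), a matricellular protein of fibrosis, was at 165, 137 and 150.5 FPKM in HFD and 88.3, 72.6 and 66.8 FPKM in GT (-0.99 ± 0.13, limma adjusted p = 0.034). Fbn1, the backbone of microfibrils and the source of asprosin, was at 56.3, 54.4 and 62.2 FPKM in HFD and 27.6, 33.9 and 26.4 FPKM in GT (-0.96 ± 0.12, limma adjusted p = 0.031). Fibronectin (Fn1) fell by 0.88 ± 0.14 on the log2 scale. The lysyl oxidases Loxl1, Loxl2 and Loxl3, which join collagen and elastin fibres, fell by 0.66 ± 0.14, 0.68 ± 0.10 and 0.61 ± 0.13 on the log2 scale, and the collagen lysyl hydroxylase Plod2 by 0.75 ± 0.12. The groups did not overlap in any of these genes, as in every DEG. Loxl4, of the same oxidase family, lay slightly higher in each GT library than in HFD and was not called (0.14 ± 0.15), as did the collagen chaperone Serpinh1 (0.21 ± 0.11, not called). Elastin itself (Eln) rose, from 52.4, 39.3 and 37.6 FPKM to 83.9, 97.0 and 84.5 FPKM (1.03 ± 0.15, limma adjusted p = 0.034), and Sparc, a collagen-binding protein abundant in adipose tissue, rose by 0.71 ± 0.14. Of the collagens 1 of 23 was called (Col8a1, -1.08 ± 0.21), where 3.63% of all genes tested were DEGs. At an unadjusted p under 0.05, 4 collagens were higher and 7 lower. The collagen median of -0.18 was -0.09 without HFD replicate 2 and 0.02 after quantile normalization. Col1a1 overlapped between the groups, at 160 to 226 FPKM in HFD and 97.1 to 169 FPKM in GT.

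Of the markers of fibroblasts and adipocyte progenitors, 5 were called lower and 1 higher. Pdgfra, the receptor that marks progenitors, was at 18.4, 20.2 and 20.0 FPKM in HFD and 10.7, 10.9 and 9.54 FPKM in GT (-0.85 ± 0.09, limma adjusted p = 0.030). Pi16, Mfap5, Clec11a and Cd34 fell by 0.96 ± 0.16, 0.94 ± 0.14, 0.94 ± 0.19 and 0.65 ± 0.11 on the log2 scale. Zfp423, a preadipocyte transcription factor, was the 1 list member called higher (1.08 ± 0.22). Of 17 genes tested 13 had a lower GT mean, and the median was -0.28.

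Proteases of mast cells fell. Of the neutrophil and mast cell markers tested, the mast cell genes Cma1, Mcpt4, Tpsb2 and Cpa3 were called lower. Cpa3 (carboxypeptidase A3) was at 4.14, 4.85 and 6.24 FPKM in HFD and 1.12, 0.717 and 0.479 FPKM in GT (-1.78 ± 0.21, limma adjusted p = 0.030), and it passed the limit of 1 FPKM only through the HFD libraries, so its call adds nothing to the list's count. Cma1 (mast cell chymase) was at 6.52, 6.41 and 11.9 FPKM in HFD and 2.39, 2.79 and 1.25 FPKM in GT (-1.54 ± 0.28, limma adjusted p = 0.041). Mcpt4, another chymase, was at 6.26, 6.68 and 11.1 FPKM in HFD and 2.21, 2.25 and 2.67 FPKM in GT (-1.38 ± 0.21, limma adjusted p = 0.036). The tryptase Tpsb2 was at 9.39, 6.56 and 13.3 FPKM in HFD and 2.67, 2.82 and 2.81 FPKM in GT (-1.47 ± 0.22, limma adjusted p = 0.036). All 4 were low in absolute level, HFD replicate 3 was highest in each, and every GT value was below every HFD value, as in every lower DEG. The neutrophil marker S100a8 overlapped, at 51.2 to 60.6 FPKM in HFD and 34.5 to 75.5 FPKM in GT. The RefSeq promoters (GRCm38.p6, minus strand, 250 bases before to 50 after the start) of the 3 proteases with an entry are shown because these genes moved together, at chr3:20242132-20242431 for Cpa3, chr14:55944626-55944925 for Cma1 and chr14:56062261-56062560 for Mcpt4. Capitals mark matches on either strand to the GATA factor motif GATAAG or to the TATA box TATAAA. The CCAAT box, the nuclear receptor motif AGGTCA and the E-box CACGTG were also searched and had no match in these 3.

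Cpa3: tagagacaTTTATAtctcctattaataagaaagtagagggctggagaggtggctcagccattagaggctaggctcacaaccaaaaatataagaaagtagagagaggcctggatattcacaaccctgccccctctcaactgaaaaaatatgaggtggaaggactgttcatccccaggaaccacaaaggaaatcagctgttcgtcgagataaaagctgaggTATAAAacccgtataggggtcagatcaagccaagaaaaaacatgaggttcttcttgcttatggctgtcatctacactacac

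Cma1: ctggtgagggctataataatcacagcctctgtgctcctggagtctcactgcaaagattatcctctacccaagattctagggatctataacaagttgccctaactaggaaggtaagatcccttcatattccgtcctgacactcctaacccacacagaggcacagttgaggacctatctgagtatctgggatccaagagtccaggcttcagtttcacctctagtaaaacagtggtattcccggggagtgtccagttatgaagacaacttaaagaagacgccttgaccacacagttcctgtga

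Mcpt4: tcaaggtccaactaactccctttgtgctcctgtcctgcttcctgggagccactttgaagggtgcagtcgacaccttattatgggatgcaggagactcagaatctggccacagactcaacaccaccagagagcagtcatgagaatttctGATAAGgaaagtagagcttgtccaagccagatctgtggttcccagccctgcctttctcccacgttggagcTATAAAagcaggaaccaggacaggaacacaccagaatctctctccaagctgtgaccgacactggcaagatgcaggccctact

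Cpa3 and Mcpt4 hold TATAAA at bases -31 to -26 and -32 to -27, Cpa3 holds its reverse complement at -242 to -237, and Mcpt4 holds GATAAG at -102 to -97. GATAAG was found in 7.44% of all promoters of the table, and Cma1 held neither motif.

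Most macrophage markers had a lower mean in GT, and 1 of them passed the test. Of 23 macrophage identity genes 21 had a lower GT mean, 14 did not overlap downward (24.4% of all genes tested), and the median log2 fold change was -0.76, and Folr2 was the 1 called. Folr2, a folate receptor of resident macrophages, was at 128, 97.6 and 143 FPKM in HFD and 71.0, 67.6 and 47.5 FPKM in GT (-0.98 ± 0.20, limma adjusted p = 0.048). Adgre1 (F4/80) was at 213, 195 and 259 FPKM in HFD and 136, 125 and 57.4 FPKM in GT and was not called (-1.15 ± 0.32, limma adjusted p = 0.080), and Itgax (CD11c) and Cd68 had log2 fold changes of -1.32 and -1.31 with adjusted p = 0.070 and 0.077 in limma. The difference was widest in GT replicate 3. The median of the list was -0.42 without it, and in the single GT replicates 1, 2 and 3 it was -0.36, -0.61 and -1.42 from the HFD mean.

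The lipid-associated macrophage list had a lower median, -0.99, with 19 of 22 genes lower in the mean, 16 of them at an unadjusted p under 0.05 (19.3% of all genes tested). Its only DEGs went up. Apoe is given above, and Acp5, the tartrate-resistant acid phosphatase, rose from 137 to 161 FPKM in HFD to 202 to 248 FPKM in GT (0.62 ± 0.12, limma adjusted p = 0.044). Trem2, the lipid receptor that names this state, was at 338, 232 and 365 FPKM in HFD and 238, 169 and 59.2 FPKM in GT and overlapped. Without GT replicate 3 the median was -0.63. Lysosomal genes had a lower GT mean in 30 of 31, with a median of -0.50 and of -0.32 without GT replicate 3. Retnla, a product of alternatively activated macrophages, was at 408, 320 and 190 FPKM in HFD and 721, 789 and 794 FPKM in GT (1.39 ± 0.26, limma adjusted p = 0.043). It was thus higher in each GT library while the macrophage list was lower.

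Of 22 chemokine genes Ccl2 and Cxcl14 were called, both lower. Ccl2 (MCP-1), which draws monocytes into fat, was at 39.0, 34.3 and 49.5 FPKM in HFD and 21.6, 21.7 and 12.6 FPKM in GT (-1.12 ± 0.23, limma adjusted p = 0.049). In the cytokine and inflammasome list 17 of 18 had a lower GT mean and 0 were called in limma (10 lower at an unadjusted p under 0.05, as were 19.3% of all genes tested). The toll-like receptor and leukocyte integrin lists had 0 DEGs of 21 and 21 in limma, with 12 and 10 genes lower and 2 and 0 higher at that p. In these 3 lists the numbers lower at that p were 6, 8 and 7 after median-of-ratios scaling and 6, 6 and 9 after quantile normalization. Of 25 interferon-stimulated genes 1 was called, where 3.63% of all genes tested were DEGs. At an unadjusted p under 0.05, 5 of the 25 were higher and 0 lower. The gene called was Ifi27l2a, higher, at 801, 626 and 658 FPKM in HFD and 1764, 2141 and 1456 FPKM in GT (1.35 ± 0.17, limma adjusted p = 0.031). In the complement list Cfb rose with Cfd, by 0.79 ± 0.10.

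Cell cycle genes were lower in 30 of 33, 25 of them without overlap (24.4% of all genes tested), with a median of -0.80 and of -0.58 without GT replicate 3. Mcm2, a subunit of the replicative helicase, was the only list member called (-0.73 ± 0.16, limma adjusted p = 0.049). Endothelial markers had a higher GT mean in 15 of 16, with a median of 0.29 (0.18 without GT replicate 3) and none called in limma (6 higher at an unadjusted p under 0.05). Of 11 genes linked to adipose expansion 2 were called (1.83% of all genes tested were higher DEGs), the imprinted genes Peg3 and Nnat, which rose by 1.15 ± 0.17 and 1.22 ± 0.22. Tph2 had the lowest log2 fold change of that list, -1.19 ± 0.36, and was not called (limma adjusted p = 0.093).

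The stress and detoxification lists held 1 to 3 DEGs each, where 3.63% of all genes tested were DEGs. Of 24 heat shock and immediate-early genes Jund and Hspe1 fell by 1.25 ± 0.19 and 0.59 ± 0.12 on the log2 scale, with a list median of -0.44, and of 24 unfolded protein response genes Sdf2l1, an endoplasmic reticulum cochaperone, fell by 0.79 ± 0.16. Among 19 cytochromes P450, Cyp4f17 rose with Cyp2e1, by 0.88 ± 0.11, and Cyp1b1 fell by 0.76 ± 0.14 on the log2 scale. Of 15 retinoid genes, the retinol saturase Retsat rose with Rbp4, by 0.65 ± 0.13. Cd83, which stabilizes MHC class II at the surface of antigen-presenting cells, fell by 1.17 ± 0.24 on the log2 scale and was the 1 called of 13 in its list. In limma none was called among the 47 proteasome genes (2 higher and 6 lower at an unadjusted p under 0.05, and 7 higher and 1 lower after median-of-ratios scaling) or among the markers of T and NK, B and plasma, erythroid, muscle, nerve, mesothelial and epididymal cells tested, of which 4 to 13 per list passed the 1 FPKM limit (at that p, 0 higher and 5 lower over these 7 lists).

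**Figure D3:**
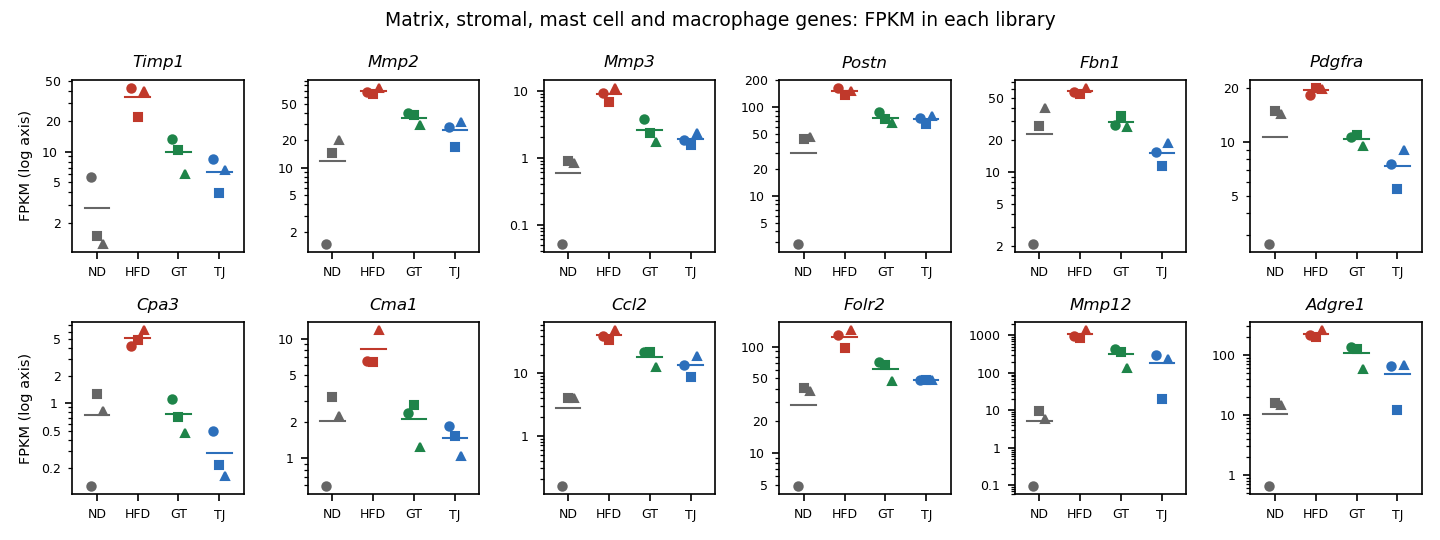
FPKM (log axis) of 12 matrix, stromal, mast cell and macrophage genes in each of the 12 libraries (circle, square and triangle for replicates 1, 2 and 3; line for the group mean of 3). The GT points lie below the HFD points in each panel, with GT replicate 3 lowest for Mmp12 and Adgre1, which were not called.

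**Figure D4:**
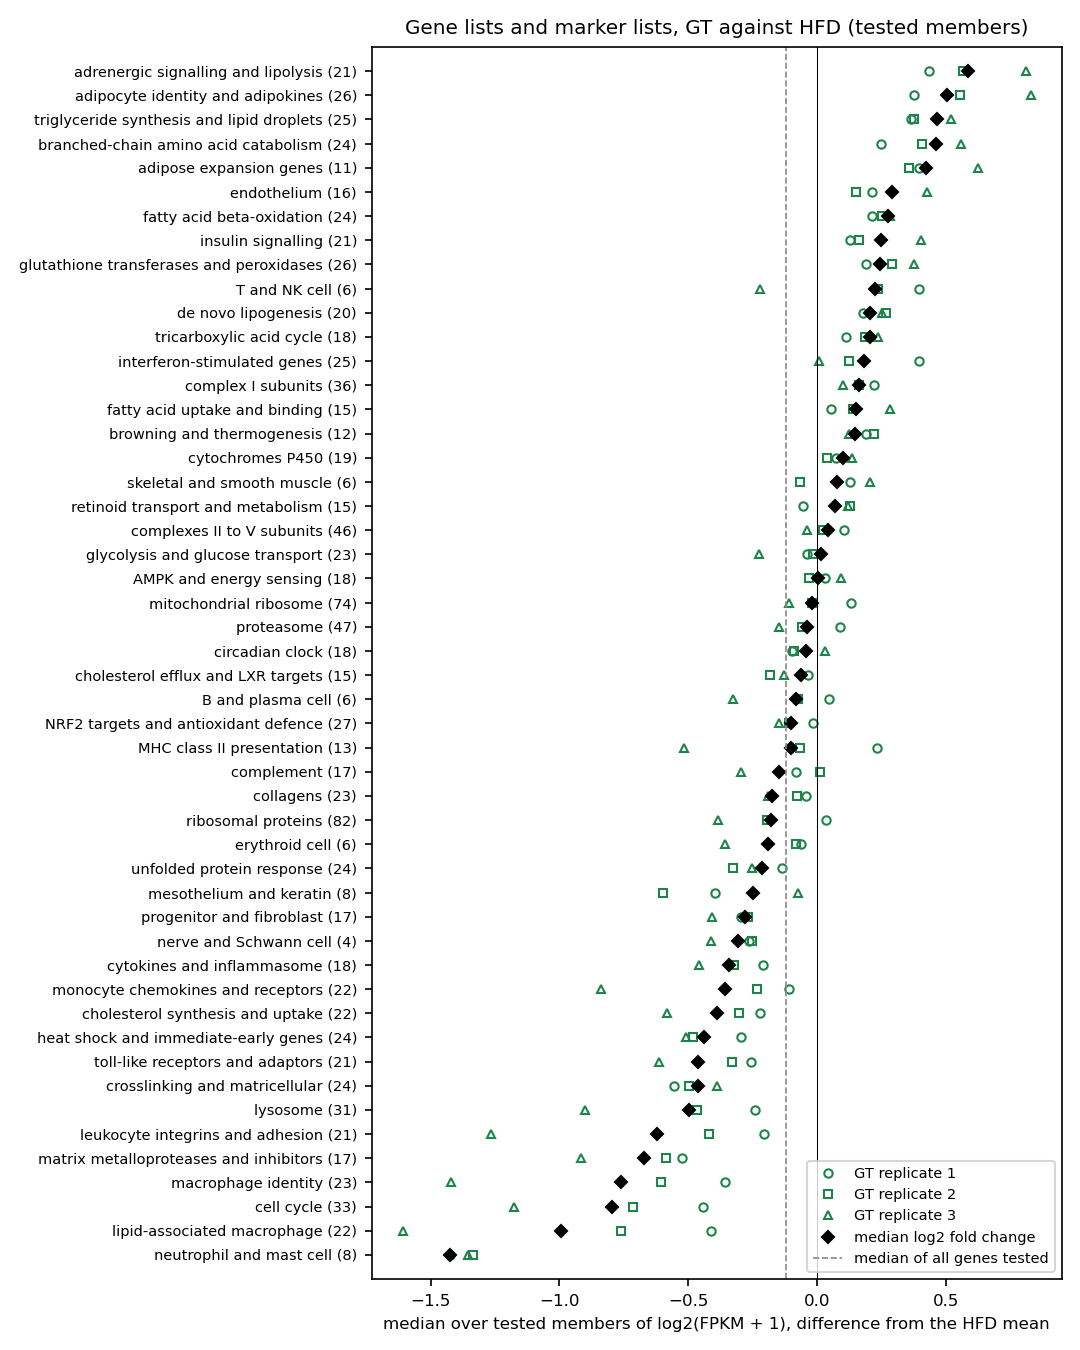
Median over the tested members (number in brackets) of the log2(FPKM + 1) difference between each GT library and the HFD mean (open symbols), and the median log2 fold change (filled), for each list but the testis and epididymis markers. Lipolysis, adipocyte, triglyceride and branched-chain amino acid genes lie to the right of the all-gene median of -0.12, and macrophage, matrix metalloprotease, cell cycle and mast cell genes to its left, with GT replicate 3 farthest out in most of the macrophage lists.

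Other DEGs with large changes lay outside these lists. Car3, a carbonic anhydrase abundant in adipocytes, was at 3013, 2836 and 2347 FPKM in HFD and 5526, 8244 and 10710 FPKM in GT (1.53 ± 0.24, limma adjusted p = 0.038). Pmepa1, a TGF-β-induced inhibitor of SMAD signalling, was at 79.8, 75.8 and 85.0 FPKM in HFD and 206, 229 and 252 FPKM in GT, a mean 2.86 times that of HFD (limma adjusted p = 0.0065), and it lost its call without HFD replicate 2 and without GT replicate 2. Syt12, a synaptotagmin, and Serpina3b, a serine protease inhibitor, rose by 1.54 ± 0.31 and 1.49 ± 0.28. With an HFD mean of 0.671 FPKM, Serpina3b passed the limit of 1 FPKM only through the GT libraries. The predicted gene Gm10073 was at 22.0, 24.0 and 22.6 FPKM in HFD and 79.4, 75.0 and 72.2 FPKM in GT (1.68 ± 0.09, limma adjusted p = 0.0013). Its 3 values in each group lay close together, and it was called with any single library of the 6 left out, while in TJ it was at 5.21, 6.49 and 55.5 FPKM. Gm10269 rose by 1.79 ± 0.25 and is annotated as a processed pseudogene, which can share reads with its parent gene, so its value is uncertain.

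Among the largest falls, Zranb3 was at 53.6, 48.3 and 84.8 FPKM in HFD and 20.5, 12.6 and 5.48 FPKM in GT (-2.31 ± 0.43, limma adjusted p = 0.043). Htr2b, a serotonin receptor, and Siglec15, a receptor of osteoclast-like cells, fell by 1.81 ± 0.39 and 1.77 ± 0.30 on the log2 scale, at 6.40 to 12.1 and 2.85 to 5.57 FPKM in HFD. Htr2b lies within the span of Psmd1 on the other strand, and Timp1 within that of Syn1. Zranb3 overlaps annotated genes on both strands. B430218F22Rik overlaps Mrps30 on the other strand, as Scand1 does Cnbd2 and Jund does Gm11175. Further named genes also overlap annotated genes, and no source used here states that counting used strand. 1700047I17Rik2 was at 11.3, 12.1 and 12.0 FPKM in HFD and 0.793, 0.378 and 0.593 FPKM in GT (-3.02 ± 0.14, limma adjusted p = 9.4e-04). With a GT mean of 0.588 FPKM, it passed the limit of 1 FPKM only through the HFD libraries. B430218F22Rik fell by 1.91 ± 0.16 on the log2 scale.

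Some of the largest falls, such as those of Scand1 and Rnaset2b, followed a pattern of libraries that the diets do not describe, and others, such as those of Zranb3 and Timp1, did not. Scand1 was at 16.0, 10.8 and 14.0 FPKM in HFD and 1.64, 0.190 and 0.552 FPKM in GT (-3.09 ± 0.30, limma adjusted p = 0.028). Rnaset2b was at 9.96, 8.72 and 9.69 FPKM in HFD and 0.576, 0.538 and 0.398 FPKM in GT (-2.80 ± 0.13, limma adjusted p = 9.4e-04). Scand1 and Rnaset2b had GT means of 0.794 and 0.504 FPKM, so they passed the limit of 1 FPKM only through the HFD libraries. For both genes, and for Rnaset2a, Gm47283, Cox5b, Cox5a, Ndufb2, Atp5d, Jund, Cbr3, Rps25, Rpl35, Mrps34 and Mrps24, the GT libraries and ND replicates 2 and 3 all lay below every HFD and TJ library and ND replicate 1. This held for 33 of the 231 lower DEGs and for 138 of the 3113 genes with all GT libraries below all HFD libraries, which the pattern requires and every lower DEG met. The reverse order held for 15 of the 233 higher DEGs and for 69 of the 1567 genes without overlap upward. 1700047I17Rik2 departed from the pattern in ND replicate 1 alone, with 0.482, 0.0844 and 1.46 FPKM in ND and 10.6, 9.25 and 14.5 FPKM in TJ. B430218F22Rik was likewise low in every ND library (0.00 to 1.20 FPKM) and high in TJ (5.91 to 7.78 FPKM). Rnaset2a and Rnaset2b are near-identical copies, and how the reads were shared between them is uncertain.

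These genes made up every DEG of the ribosomal protein list (Rps25 and Rpl35, of 82), the mitochondrial ribosome list (Mrps34 and Mrps24, of 74) and the respiratory chain lists, and 1 of the 3 called NRF2 targets (Cbr3). Of the 45 genes with a GC content above 65%, 8 were lower DEGs (17.8%) and the median log2 fold change was -0.48, while over all 12686 genes with a value the Spearman correlation across genes of the log2 fold change was 0.126 with GC content and -0.02 with transcript length. Genes are not independent replicates, and no test is attached to these values. The part of GC content in this pattern was not tested. With a loess trend on GC content removed, 187 higher and 154 lower DEGs were called.

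**Figure D5:**
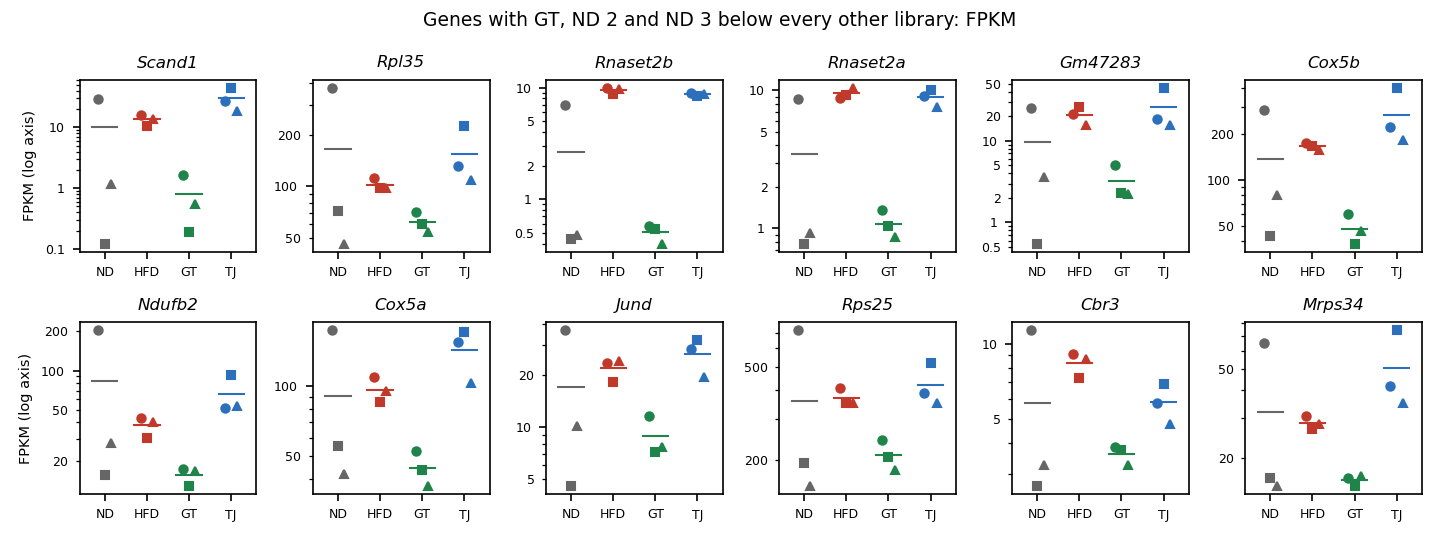
FPKM (log axis) of 12 genes called lower in GT, in each of the 12 libraries (circle, square and triangle for replicates 1, 2 and 3; line for the group mean of 3). In each panel the GT libraries and ND replicates 2 and 3 lie below the HFD and TJ libraries and ND replicate 1.

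The other diets place the GT levels side by side, and these comparisons share the HFD libraries. Cyp2e1 was at 102, 1612 and 1492 FPKM in ND and 727, 1605 and 642 FPKM in TJ. Cfd was at 3048, 4074 and 3626 FPKM in ND and 2091, 9296 and 1668 FPKM in TJ, so its highest GT library, at 1668 FPKM, lay below each ND library. Mmp12 was at 0.0959 to 9.70 FPKM in ND and 19.5 to 301 FPKM in TJ, and Timp1 was at 1.25 to 5.71 FPKM in ND and 3.90 to 8.45 FPKM in TJ. Every GT library was above every ND library in both of these genes. For Pdgfra the ND libraries 2 and 3 were above the GT libraries and the TJ libraries below them.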

How the data were processed

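Libraries were made from mRNA of eWAT with an Illumina TruSeq RNA kit and sequenced as paired ends. The deposited table holds FPKM values that the authors computed with Cufflinks 2.1.1 after mapping with STAR, on the Ensembl release 72 annotation (multiread and fragment bias corrected, noncoding genes masked). The submitters' processing notes name STAR 2.4.0 and CASAVA 1.8.2, while the methods name an earlier STAR release and the human genome, although the identifiers are mouse. Cufflinks shares reads among similar copies, so values of copied genes are estimates. The authors' read counts were not used here.

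GENCODE M21 (GRCm38) named 22671 identifiers and left 803 without a symbol. log2(FPKM + 1) of the 3 HFD and 3 GT libraries was fitted with limma 3.58.1 (R 4.3.3, eBayes with a mean-variance trend), with Benjamini-Hochberg adjustment over the 12766 genes, and fold changes on this scale understate the change of genes near 1 FPKM. Simulated data were also put through the procedure, and their outcome is not reported here. Depth was estimated from the smallest step of FPKM times length and is approximate. Figures and tables were made with Python 3.11.15.

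Genes named are the 12 DEGs per direction with a symbol and the largest fold change whose groups did not overlap (at least 1 FPKM in each library of the higher group, none holding over 60% of that group's sum), the extremes and up to 6 DEGs of each list, and a set of standard adipose genes. Others named were chosen after their values were seen. The genes compared and the lists were chosen with earlier results of these data known, and a list gets no test of its own.

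Alternatives were other pseudocounts, filters, scalings and variance models, all 12 libraries in the fit, each library left out, the replicate number as a block, and fits chosen after seeing the data (HFD replicates 1 and 2 left out, GC and length trends removed). Same-numbered HFD and GT libraries deviated together with correlations of 0.198, 0.053 and -0.07, so the numbers do not pair them. A few list members are not reported here.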

Additional observations from a re-analysis of the deposited data

How the results depend on the processing

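The number of DEGs depended on the fit, and the cause was not tested beyond the construction of each alternative. Counts are given as higher and lower in GT, against 233 and 231. Without the filter on low values limma called 2 and 3, which tests 19470 genes. Median-of-ratios scaling gave 367 and quantile normalization 405 higher DEGs, array weights gave 520 and 1069, and leaving out the mean-variance trend gave 33 and 34. With all 12 libraries in the fit 0 and 1 were called (109 and 434 at an unadjusted p under 0.05). With the replicate number as a block, which does not pair these libraries, 1 and 4 were called. Leaving out 1 library gave 1 to 375 higher and 3 to 732 lower DEGs. With HFD replicates 1 and 2 left out, an alternative chosen after seeing the data in which the lone HFD library is assumed to vary like the GT libraries, 0 and 0 were called (1093 and 1202 at an unadjusted p under 0.05). Pseudocounts of 0.1 and 0.01, a limit of 5 FPKM and removal of a length or GC trend, the last 2 also chosen after seeing the data, kept both counts within 1.5 times. Among the genes named, signs turned for Nqo1, Ndufa5 and Lep. The log2 fold change of Nqo1 was 0.004 under median-of-ratios scaling, 0.15 under quantile normalization, 0.20 without HFD replicate 2 and 0.12 with HFD replicates 1 and 2 left out. That of Ndufa5 was -0.126 and -0.069 under the latter 2, and that of Lep was -0.03 with array weights. With single libraries left out, Nqo1 ranged from -0.262 to 0.201 and Ndufa5 from -0.126 to 0.181. FPKM values carry no counts, so depth limits the genes near 1 FPKM by an amount that is unknown here.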

Other observations

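DEGs outside the lists held further genes of adipocyte metabolism. They were chosen after their values were seen, and no test of a group is attached. Hcar1, the lactate receptor that restrains lipolysis, was at 21.3, 17.4 and 13.0 FPKM in HFD and 31.1, 32.8 and 47.6 FPKM in GT (log2 fold change 1.06 ± 0.22, limma adjusted p = 0.048), and Slc16a1, a lactate carrier, rose by 0.83 ± 0.12. Nrg4, a growth factor secreted by adipocytes, was at 12.4, 14.8 and 12.7 FPKM in HFD and 25.9, 30.3 and 44.8 FPKM in GT (1.25 ± 0.20, limma adjusted p = 0.038). Trarg1, which takes part in glucose transporter traffic, rose by 1.01 ± 0.15. Enzymes of other amino acids were also called higher. Abat, which breaks down GABA, was at 11.9, 14.0 and 10.3 FPKM in HFD and 21.9, 33.1 and 37.3 FPKM in GT (1.26 ± 0.21, limma adjusted p = 0.038). Csad, of taurine synthesis, rose by 1.06 ± 0.14, Phgdh, of serine synthesis, by 0.79 ± 0.14, and Fah, of tyrosine breakdown, by 0.75 ± 0.14. The alanine transaminases Gpt and Gpt2 rose by 0.70 ± 0.12 and 0.60 ± 0.13.

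Further stromal genes were called lower. Mgp, the matrix Gla protein, was at 217, 243 and 336 FPKM in HFD and 125, 114 and 74.7 FPKM in GT (-1.34 ± 0.24, limma adjusted p = 0.038). Aebp1, Fbln1, Vcan and Cd248, genes of matrix and perivascular stroma, fell by 0.94 ± 0.10, 1.11 ± 0.13, 1.10 ± 0.23 and 0.96 ± 0.17 on the log2 scale. Tgfbr1, the type I TGF-β receptor, fell by 0.93 ± 0.19 and the activin antagonist Fst by 0.81 ± 0.13 on the log2 scale, while Fstl3, another activin antagonist, rose by 1.01 ± 0.16. Hpgds, the prostaglandin D synthase of mast cells and macrophages, was at 31.5, 37.9 and 41.5 FPKM in HFD and 18.0, 14.1 and 6.59 FPKM in GT (-1.54 ± 0.32, limma adjusted p = 0.049). Il1rl1, the IL-33 receptor that mast cells carry, fell by 0.63 ± 0.13 on the log2 scale. As for the genes of the lists, these calls depend on single libraries.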
